A study of Homo sapiens with 6 samples.

Results

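Intermediate filaments are the rope-like fibres of the cytoskeleton, and which proteins build them differs between cell types. Keratins pair a type I with a type II subunit in epithelial cells, vimentin is the type III subunit of mesenchymal and many cultured cells, and the type IV neurofilament subunits fill the axons of neurons. Retinal pigment epithelium is an epithelium of neural origin that carries simple keratins, and vimentin is common in its cells in culture.

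The account covers 10 genes of 20461 with an Ensembl identifier in the deposited tables. They are the neurofilament subunits NEFH, NEFM and NEFL, the related neuronal subunit INA (alpha-internexin), the progenitor subunit NES (nestin), VIM (vimentin), the type II keratins KRT7 and KRT8 and the type I keratins KRT18 and KRT19. They were found by gene symbol. They were chosen by name with values measured in this contrast known, NEFH being among its large falls, so every value of the contrast for these genes is a description and none carries a test.

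RNA was sequenced from ARPE-19 cells, an established human retinal pigment epithelial line. The 3 control libraries came from cells given a control lentivirus, and the 3 PDZK1 libraries came from cells given a lentivirus for overexpression of PDZK1, whose PDZ domains tether membrane proteins. All 6 libraries shared the same handling, with virus at a multiplicity of infection of 10, selection in 4 µg/ml puromycin followed by 48 h in medium with glucose at 37.5 mM. The promoter of the virus is not given in the sources used here, nor whether libraries of a group came from separate transductions, so errors and p-values measure only the spread between these libraries. Total counts ran from 27970618 to 32804567 per library, and PDZK1 itself had 18 to 23 counts in the control libraries and 2541 to 3020 in the PDZK1 libraries. Control replicate 3 was the shallowest library and also stood apart from the other controls in VIM and the keratins, so results that rest on it are given with and without it.

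The coding sequences show what the genes share and where NEFH differs. The end of the central rod, the stretch through which subunits of all types assemble, is encoded by 27 bases that could be located in 8 of the genes in GENCODE release 29 (GRCh38). Of these bases 12 were identical in all 8 genes and are in capitals, on the coding strand from 5′ to 3′.
NEFH: gCtTACaGaaaaCTcCTgGAaGgtgaa
VIM: aCcTACaGgaagCTgCTgGAaGgcgag
KRT7: aCcTACcGcaagCTgCTgGAgGgcgag
KRT8: aCcTACaGgaagCTgCTgGAgGgcgag
KRT18: aCcTACcGccgcCTgCTgGAaGatggc
The VIM segment lies at chr10:17235355-17235381 on the plus strand, that of KRT7 at chr12:52245598-52245624 (plus), that of KRT8 at chr12:52898687-52898713 (minus) and that of KRT18 at chr12:52952305-52952331 (plus). The segment of NEFH is split by an intron between chr22:29485840 and chr22:29488867, and in the type IV genes INA and NES an intron splits it as well, whereas in VIM and the 4 keratins it lies in 1 exon. Against VIM, 26 of the 27 bases were identical in KRT8, 24 in KRT7 and in INA, 20 in NEFH and in NES, 19 in KRT19 and 18 in KRT18. These type IV genes also had fewer coding exons, 4 in NEFH, 4 in NES and 3 in INA, against 9 in VIM, 9 in KRT7, 9 in KRT8, 7 in KRT18 and 6 in KRT19. The type IV genes NEFM and NEFL were not part of these sequence comparisons.

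The tail of NEFH carries repeats of lysine, serine and proline, whose serines are phosphorylated in axons. The NEFH coding sequence of 3060 bases held 40 such codon triplets, against 1 in NES (4863 bases) and 0 in INA, VIM, KRT7, KRT8, KRT18 and KRT19. NEFM and NEFL were not counted, so the repeats are not shown to be particular to NEFH among the neurofilament subunits. A stretch of 240 bases from codon 516 to codon 595, in an exon at chr22:29489186-29489425 on the plus strand, holds 12 of them, shown in capitals.
NEFH tail: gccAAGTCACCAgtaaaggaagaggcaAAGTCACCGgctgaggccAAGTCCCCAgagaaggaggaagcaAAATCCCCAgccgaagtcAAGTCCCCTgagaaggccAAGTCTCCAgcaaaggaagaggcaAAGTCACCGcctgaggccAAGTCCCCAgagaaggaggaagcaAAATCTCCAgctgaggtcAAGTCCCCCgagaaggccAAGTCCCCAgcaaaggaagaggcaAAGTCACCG

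Vimentin and 3 keratins made up nearly all of the filament transcripts in both groups, and NEFH was the only neurofilament subunit with reads. Levels between genes are compared as FPKM, fragments scaled by transcript length and by library size, which is a level per length. The fold changes are from edgeR's quasi-likelihood fit over all 13645 genes tested, with PDZK1 set against control. Of the 10 genes, 5 passed the filter on low counts (NEFH, VIM, KRT7, KRT8 and KRT18), 2 had a few counts only (NES and KRT19) and 3 had 0 counts in every library (NEFM, NEFL and INA).

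**Figure D1:**
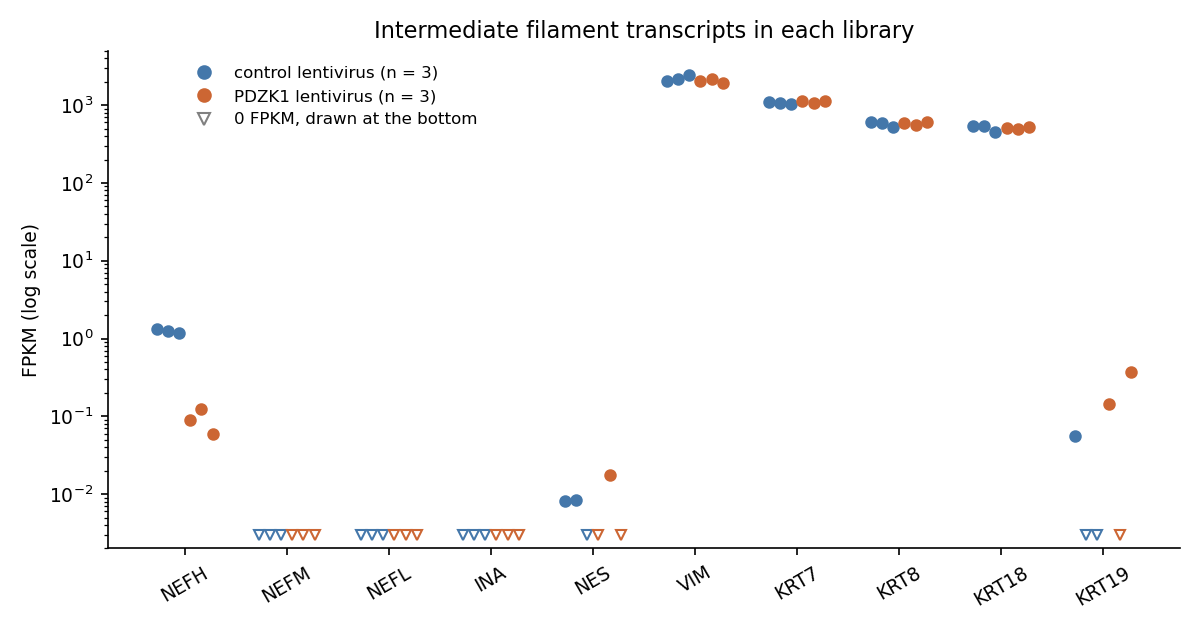
FPKM of the 10 genes (log axis) in each of the 6 libraries, blue for control and orange for PDZK1 lentivirus, with 1 point per library and open triangles for 0 FPKM. VIM and 3 keratins sit at 452 FPKM or more in every library, and NEFH is at 1.17 FPKM or more in the controls and at 0.124 FPKM or less with PDZK1.

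VIM (ENSG00000026025, chr10:17228259-17237593, plus strand) was the most abundant of the 10 genes in every library. With control virus it had 2036, 2148 and 2474 FPKM, and with PDZK1 it had 2026, 2173 and 1947 FPKM. It ranked between 6 and 8 among all genes of a library. The groups overlapped, with means of 2219 ± 228 (SD, n = 3) and 2049 ± 114 (SD, n = 3), and control replicate 3 was the highest of the 6. The log2 fold change was -0.13 (SE 0.07), with a 95% interval from -0.30 to 0.05, and it was -0.04 without control replicate 3.

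KRT7 (ENSG00000135480, chr12:52232520-52252186, plus strand), a type II keratin of simple and glandular epithelia, was the most abundant keratin. With control virus it had 1081, 1063 and 1038 FPKM, and with PDZK1 it had 1123, 1080 and 1124 FPKM. Only PDZK1 replicate 2, at 1080, lay within the control range, and the means were 1061 ± 21.9 and 1109 ± 25.1 (SD, n = 3 each). On the log2 scale it differed by 0.05 (SE 0.04), with a 95% interval from -0.03 to 0.14.

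KRT8 (ENSG00000170421, chr12:52897187-52949954, minus strand) is the type II keratin that pairs with KRT18 in simple epithelia. It had 613, 586 and 531 FPKM in the control libraries and 596, 550 and 598 with PDZK1. The values were interleaved, with means of 577 ± 41.7 and 581 ± 27.3 (SD, n = 3 each). The model gave a log2 fold change of 0.01 (SE 0.06), with a 95% interval from -0.12 to 0.14, and it was -0.04 without control replicate 3.

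KRT18 (ENSG00000111057, chr12:52948871-52952901, plus strand), its type I partner, had 533, 535 and 452 FPKM in the control libraries and 509, 490 and 518 with PDZK1. Its 3 PDZK1 values all lay inside the control range, whose lowest value was control replicate 3, and the means were 506 ± 47.4 and 506 ± 14.6 (SD, n = 3 each). Its log2 fold change of -0.01 (SE 0.06) had a 95% interval from -0.15 to 0.13, and the sign turned in 7 of 16 alternatives, being 0.006 with scaling by library totals, while it was -0.085 without control replicate 3. The spans of KRT8 and KRT18 overlap on opposite strands, and the counting is not stated to use strand. GENCODE also lists 50 numbered pseudogenes of KRT8 and 67 of KRT18, so that the levels of this pair are uncertain to the extent that reads were shared.

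KRT19 (ENSG00000171345, chr17:41523617-41528308, minus strand), the small type I keratin of simple epithelia, was nearly silent. It had 3, 0 and 0 counts in the control libraries and 8, 0 and 18 with PDZK1. The counts in PDZK1 replicates 1 and 3 were the higher ones, PDZK1 replicate 2 had none, and the gene did not pass the filter on low counts.

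NEFH (ENSG00000100285, chr22:29480230-29491390, plus strand), the heavy neurofilament subunit, was a low-level transcript that nearly disappeared with PDZK1. The control libraries held 178, 158 and 135 counts of it and the PDZK1 libraries 12, 17 and 8. In FPKM these were 1.34, 1.23 and 1.17 against 0.0896, 0.124 and 0.0601. The groups stood far apart, the lowest control library having 135 counts and the highest PDZK1 library 17. On the scale of CPM, counts scaled to a common library size, the means were 5.17 ± 0.313 and 0.382 ± 0.133 (SD, n = 3 each). This was 13.4-fold lower, with a 95% interval from 8.92 to 20.1, or a log2 fold change of -3.74 (SE 0.26). Leaving out 1 library at a time gave -4.03 to -3.52. The 8 to 17 counts with PDZK1 lay above the 3 counts that a count of 0 allows, so residual NEFH reads were detected in all 6 libraries. NEFH passed the filter on low counts through its control libraries.

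NEFH ranked between 11220 and 11346 by FPKM in the control libraries and between 13471 and 14031 with PDZK1, where 14927 to 15095 genes had an FPKM above 0. In bulk RNA, fewer cells with NEFH transcript and less of it per cell cannot be told apart. The fold depends on the scale, since on log2(FPKM + 1) the pseudocount is as large as the gene's own level and the log2 change was -1.04.

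The genes that co-assemble with NEFH in neurons were not detected. NEFM (ENSG00000104722, chr8:24913012-24919098, plus strand), NEFL (ENSG00000277586, chr8:24950955-24957110, minus strand) and INA (ENSG00000148798, chr10:103277163-103290351, plus strand) had 0 counts in each of the 6 libraries. A count of 0 allows up to 3 counts, or 0.0915 to 0.109 CPM depending on the library, for counting error only. NEFL is the core subunit of neurofilaments, with which NEFH and NEFM assemble in neurons. NES (ENSG00000132688, chr1:156668763-156677397, minus strand), the subunit of neural progenitors, had 2, 2 and 0 counts in the control libraries and 0, 4 and 0 with PDZK1, which is at or near that floor in both groups.

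Among the 5 genes tested, 1 was called at an adjusted p under 0.05 (NEFH, lower) and 4 were not, and the groups did not overlap for 1 of the 5, again NEFH. Over all 13645 genes 522 were called, or 3.83%, with 1.41% higher and 2.41% lower, and the groups did not overlap for 23.9% of them. Nothing is read from the members' count, because the genes were chosen with this contrast known. The median log2 fold change over all genes tested was -0.0003.

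**Figure D2:**
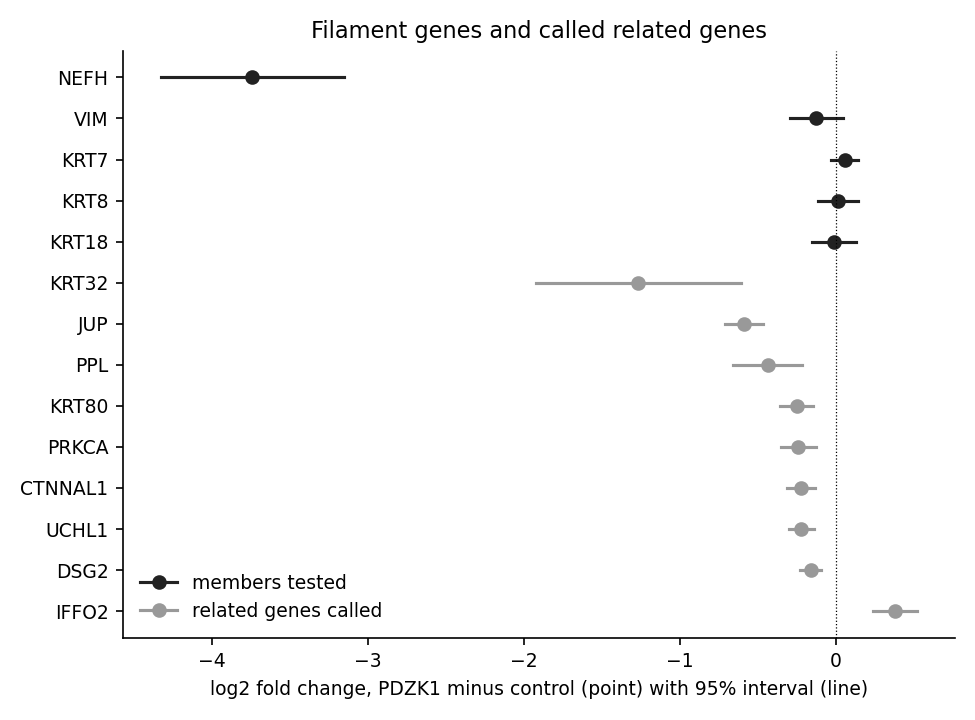
Log2 fold change (horizontal axis, PDZK1 minus control) with its 95% interval for the 5 filament genes tested (black) and the 9 called genes of the related lists (grey). The interval of NEFH runs from -4.33 to -3.16, the intervals of VIM, KRT7, KRT8 and KRT18 cross 0, and IFFO2 is the only related gene to the right of 0.

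The composition of the filament transcripts was close to an even split of vimentin and keratin. The 10 genes together had 4189 to 4496 FPKM per library, which was 1.12% to 1.17% of all FPKM and 0.802% to 0.865% of all counts. VIM took 47.8%, 49.6% and 55.0% of that sum with control virus and 47.6%, 50.6% and 46.5% with PDZK1. The keratins took 52.2%, 50.4% and 44.9% against 52.4%, 49.4% and 53.5%. Control replicate 3 was the library with most vimentin and least keratin, and the other 5 lay between 46.5% and 50.6% vimentin.

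The mean share of VIM was 50.8% ± 3.79 in the controls and 48.2% ± 2.13 with PDZK1 (SD, n = 3 each). The difference of -2.54 percentage points was smaller than the SD of the controls, and it was -0.41 without control replicate 3. For the keratins the difference was 2.57 points, and 0.44 without that library. NEFH took 0.0286% ± 0.00261 of the sum in the controls and 0.00214% ± 0.000725 with PDZK1.

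**Figure D3:**
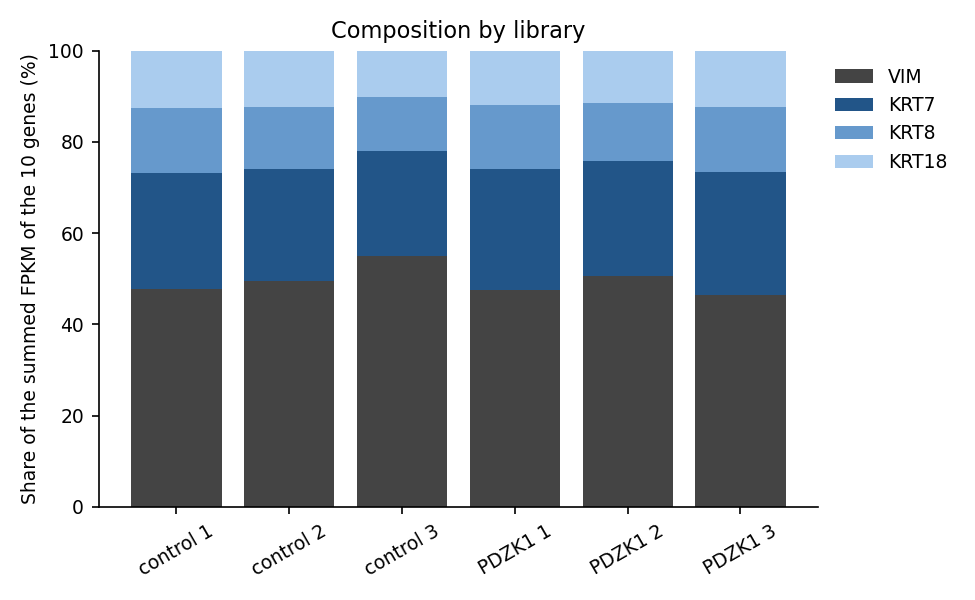
Stacked bars of the share (percent, vertical axis from 0 to 100) of VIM, KRT7, KRT8 and KRT18 in the summed FPKM of the 10 genes, for each of the 6 libraries. VIM takes between 46.5% and 55.0%, with control replicate 3 highest, and the other 6 genes are too low to be seen.

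Within the keratins, the order KRT7, KRT8, KRT18 held in all 6 libraries. KRT7 took a mean of 24.3% ± 1.15 of the summed FPKM in the controls and 26.1% ± 0.869 with PDZK1, KRT8 took 13.2% ± 1.3 and 13.7% ± 0.783, and KRT18 took 11.6% ± 1.37 and 11.9% ± 0.485. The differences in share were 1.81 percentage points for KRT7, 0.463 for KRT8 and 0.294 for KRT18, and without control replicate 3 they were 1.18, -0.25 and -0.496. KRT8 and KRT18 were the closest in level, and KRT8 was above KRT18 in each library. KRT7 was 1.76, 1.81 and 1.95 times KRT8 in the control libraries and 1.89, 1.96 and 1.88 times with PDZK1. The groups overlapped through control replicate 3, and the difference of the mean ratios was 0.0651 with that library and 0.12 without it.

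Because a keratin filament pairs type I with type II subunits, the ratio of the types was also taken. Type II transcripts outnumbered type I in every library. KRT7 and KRT8 together had 3.18, 3.08 and 3.47 times the FPKM of KRT18 in the controls and 3.37, 3.33 and 3.32 times with PDZK1. Over all 55 keratin genes in the table, 26 of type II and 29 of type I, the ratio was 2.99, 2.92 and 3.44 in the controls and 3.22, 3.25 and 3.19 with PDZK1. In both ratios control replicate 3 was the highest of the 6 libraries, and the groups overlapped through that library alone. The difference of the mean ratios was 0.0951 for KRT7 and KRT8 over KRT18 and 0.0999 for all keratins, and without control replicate 3 it was 0.209 and 0.263, with the PDZK1 libraries above both remaining controls. KRT7, KRT8, KRT18 and KRT19 held 91.7% to 93.1% of all keratin FPKM in the controls and 93.3% to 93.9% with PDZK1.

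Genes around the filament system were taken from 11 lists, of which 157 genes were in the tables, 94 were tested and 9 were called, 1 higher and 8 lower. The counts and medians below describe the lists beside the 3.83% called over all genes, and 7 of these 9 calls were made in 7 to 9 of the 16 alternative analyses, the exceptions being JUP (16 of 16) and UCHL1 (13 of 16). The 9 calls became 1 (JUP) without PDZK1 replicate 1 or without PDZK1 replicate 3, and 15 without control replicate 3. In that last refit the other keratins called rose from 2 to 5 and the neuronal markers from 1 to 2. The genes of filament turnover and of the RE1 repressor complex, both described below, each rose from 0 to 1.

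Of 51 other keratins in the table, 29 had 0 counts in every library, and of 15 tested 2 were called, both lower, with a median log2 fold change of -0.23. KRT80, a type II keratin and the most abundant of them, had 123, 119 and 112 FPKM in the controls and 102, 94.5 and 103 with PDZK1, without overlap (log2 fold change -0.25, SE 0.05, edgeR adjusted p = 0.0175). KRT32, a type I hair keratin, had 2.26, 2.08 and 1.35 FPKM against 0.829, 0.495 and 1.04 (log2 fold change -1.27, SE 0.29, edgeR adjusted p = 0.0469). Both sets of values were lower with PDZK1 in all 3 libraries. The hair keratin KRT34, named after its values were seen, varied more within groups than between them, with 37.7, 36.7 and 14.7 FPKM in the controls and 30.3, 18.5 and 27.9 with PDZK1. Another hair keratin, KRT33A, had 18, 13 and 8 counts in the controls and 0, 0 and 0 with PDZK1, and did not pass the main filter on low counts. With DESeq2, and with a minimum of 1 count in total, 3 of the other keratins were called in place of 2. Of the 15 other keratins tested, 9 had a log2 fold change below 0 and 6 above 0. KRT33B had 19.1, 18.7 and 9.29 FPKM in the controls and 11.0, 8.86 and 10.9 with PDZK1. Its log2 fold change was -0.63, with a 95% interval from -1.435 to 0.175. That of KRT86 was -0.65, with a 95% interval from -1.28 to -0.02. Neither was called in the main fit, and each was called in 1 of the 16 alternatives.

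Among 4 tested genes of other cytoplasmic filaments, with a median of 0.11, 1 was called. IFFO2, a little-studied member of the intermediate filament family, had 2.96, 2.73 and 2.78 FPKM in the controls and 3.65, 3.69 and 3.77 with PDZK1 (log2 fold change 0.38, SE 0.06, edgeR adjusted p = 0.0119). Of the 3 lamins, the intermediate filaments of the nucleus, all were tested and 0 were called by edgeR, DESeq2 or limma-voom, 0 had an unadjusted p under 0.05, and the median was -0.06. LMNA had 156 ± 22.6 and 151 ± 9.64 FPKM (SD, n = 3 each).

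Filaments are anchored by cytolinkers and by desmosomes, the junctions that keratins attach to. Of 11 cytolinker genes tested, 2 were called, both lower, and the median was -0.10. PPL (periplakin), which links keratins to the cell border, had 4.91, 5.50 and 6.57 FPKM in the controls and 4.28, 4.16 and 4.17 with PDZK1 (log2 fold change -0.44, SE 0.10, edgeR adjusted p = 0.0452). CTNNAL1, an alpha-catenin relative, had 52.0 ± 2.37 and 44.8 ± 0.495 FPKM (log2 fold change -0.23, SE 0.04, edgeR adjusted p = 0.0137). Of 9 desmosome genes tested, 2 were called, both lower, and the median was -0.02.

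JUP (plakoglobin), the armadillo protein of the desmosome plaque, had 10.8, 11.8 and 11.1 FPKM in the controls and 7.51, 7.37 and 7.11 with PDZK1. Its groups stood apart, with a log2 fold change of -0.59 (SE 0.06, edgeR adjusted p = 0.000531), and the adjusted p stayed at or below 0.0141 in all 16 alternatives. DSG2, the desmosomal cadherin of simple epithelia, had 33.1 ± 2.7 and 28.8 ± 0.382 FPKM (log2 fold change -0.16, SE 0.03, edgeR adjusted p = 0.0186). DSP (desmoplakin), which ties keratins to the plaque and counts in both lists, had 26.4 ± 2.36 and 28.1 ± 2.47 FPKM and was not called.

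Of 16 kinases and phosphatases that act on filament subunits, all were tested and 1 was called, with a median of -0.02. PRKCA, a protein kinase C, had 12.1 ± 0.611 and 10.3 ± 0.517 FPKM (log2 fold change -0.24, SE 0.05, edgeR adjusted p = 0.0303). CDK5, a kinase of the NEFH tail repeats, had 24.3 ± 0.587 and 25.4 ± 0.776 FPKM and was not called. CDK5R1, of the same list, had 1.01, 0.795 and 1.03 FPKM in the controls and 1.28, 1.64 and 1.12 with PDZK1. It was not called (log2 fold change 0.49, 95% interval from 0.09 to 0.90). In this list 2 genes had an unadjusted edgeR p under 0.05, and 6 log2 fold changes were above 0 and 10 below. Of 8 genes of filament turnover, 0 were called by edgeR and by limma-voom and 1 by DESeq2 (TRIM2), which was also the 1 gene with an unadjusted edgeR p under 0.05, and the median was 0.02. They included the small heat shock protein HSPB1 at 317 ± 9.02 and 331 ± 10.0 FPKM. Of 8 genes of the RE1 repressor complex, which holds neuronal genes silent outside neurons, 0 were called by edgeR, DESeq2 or limma-voom, 1 had an unadjusted edgeR p under 0.05 (HDAC1), and the median was 0.01. Its DNA-binding subunit REST had 11.1 ± 0.59 and 11.0 ± 0.508 FPKM, with a log2 fold change of -0.01 and an edgeR adjusted p of 0.948. Without control replicate 3, edgeR called HDAC1 (edgeR adjusted p = 0.0335) and TRIM2.

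Neuronal markers were examined because the neurofilament genes mark neurons. Of 16 markers, 2 (STMN2 and DCX) had 0 counts in every library, 9 were tested and 1 was called, with a median of -0.12. UCHL1, a ubiquitin hydrolase abundant in neurons, had 414, 422 and 431 FPKM in the controls and 347, 357 and 356 with PDZK1 (log2 fold change -0.22, SE 0.04, edgeR adjusted p = 0.0092). It carried most of the list's summed level, which was 607 to 613 FPKM in the controls and 521 to 525 with PDZK1, so this sum was lower with PDZK1, as NEFH was, and its part in the fall of NEFH was not tested. ENO2 had 74.3 ± 6.21 and 69.9 ± 2.45 FPKM, TUBB3 65.7 ± 10.1 and 62.6 ± 5.48, and neither was called in the main fit. Of the 9 tested, 6 had a log2 fold change below 0 and 3 above 0. MAP2, at 42.7 ± 6.27 and 32.0 ± 4.3 FPKM, did not overlap between groups (log2 fold change -0.41, 95% interval from -0.70 to -0.12). The lowest log2 fold change was that of ELAVL3, at -1.07 (95% interval from -2.12 to -0.03). It had 18, 14 and 14 counts in the controls and 12, 6 and 5 with PDZK1. MAP2 and ELAVL3 were not called in the main fit. The highest was that of SNAP25, a protein of the synapse, with 10, 7 and 5 counts in the controls and 25, 18 and 25 with PDZK1, which did not overlap but was not called (log2 fold change 1.53, SE 0.41, edgeR adjusted p = 0.0765). In the alternatives that tested them, MAP2 and TUBB3 were each called in 1 of 16 and SNAP25 in 1 of 13. ENO2 was called in 0 of 16 and ELAVL3 in 0 of 13.

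Of 9 glial markers, 4 had 0 counts in every library, and of the 2 tested, MBP and GLUL, 0 were called by edgeR, DESeq2 or limma-voom and 0 had an unadjusted p under 0.05, with a median of 0.05 and a summed level of 45.9 to 46.5 FPKM in the controls and 48.3 to 48.4 with PDZK1. Of 14 retinal pigment epithelium markers, RPE65 and TTR had 0 counts in every library, 10 were tested, 0 were called by edgeR, DESeq2 or limma-voom, 1 had an unadjusted edgeR p under 0.05 (LRAT), and the median was -0.05. OTX2 had 23.5 ± 3.35 and 23.0 ± 1.31 FPKM, and MITF 8.30 ± 0.679 and 7.72 ± 0.679. RPE65 is the isomerase of the visual cycle, so the transcription factors of the lineage were detected and this defining enzyme was not. BEST1 stood apart in 1 library, with 11459 counts in PDZK1 replicate 1 and 124 to 181 in the other 5, which raised the upper end of the list's sum from 48.6 FPKM in the controls to 118 with PDZK1.

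The genes beside NEFH were examined for the same change. Of 7 tested within 250 kb, 0 were called by edgeR, 0 by DESeq2 and 0 by limma-voom, 1 had an unadjusted edgeR p under 0.05 (NF2), and the log2 fold changes ran from -0.11 to 0.13. With 3.83% called over all genes tested, nothing is read from the count of 0 among 7. The nearest were THOC5, 14.5 kb downstream, at -0.05, and AP1B1, at -57.1 kb, also at -0.05. NF2, 112.2 kb downstream, had the lowest value, -0.11, and its interval from -0.21 to -0.01 did not reach 0 although it was not called (edgeR adjusted p = 0.239). An antisense transcript, AC000035.1, overlaps NEFH, and without a stated strand its reads and those of NEFH cannot be told apart.

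**Figure D4:**
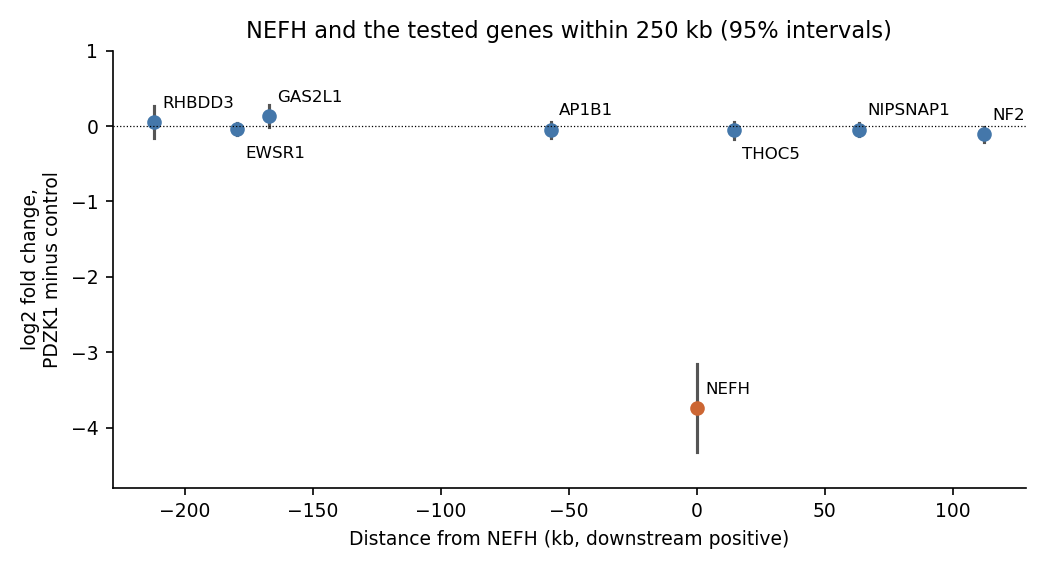
Log2 fold change (vertical axis, PDZK1 minus control) with 95% intervals against the distance from NEFH in kb, downstream positive, for NEFH (orange) and the 7 tested genes within 250 kb (blue). The neighbours lie between -0.11 and 0.13 and NEFH lies at -3.74.

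Around the other filament genes, 2 of 43 neighbours tested were called, beside 3.83% over all genes tested, and nothing is read from this count. Both were keratins, and KRT7 and KRT19 lie among other keratin genes. They were KRT80, 40.5 kb from KRT7, and KRT32, 56.2 kb from KRT19, both described above. Of 6 tested within 250 kb of the KRT8 and KRT18 pair, 0 were called by edgeR, 1 by DESeq2 and 1 by limma-voom (IGFBP6 in both), 2 had an unadjusted edgeR p under 0.05 (IGFBP6 and TNS2), and the values ran from -0.04 to 0.27. KRT7 overlaps the protein-coding KRT86 and the antisense KRT7-AS, and VIM overlaps the antisense VIM-AS1, so their levels carry the same limit as that of NEFH.

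The genes whose profiles over the 6 libraries were most like that of NEFH were found among 11096 genes with a mean of at least 5 CPM. NEFH itself, with group means of 5.17 and 0.382 CPM, is below that mean, so genes at its own level were not searched. Likeness was the root mean square difference of log2 CPM after each gene was centred on its own mean, over 6 libraries that share their groups, and it is a description. CSRP1, a LIM-domain protein of the actin cytoskeleton, was nearest at 0.52, with 11.8, 12.3 and 14.4 CPM in the controls and 2.47, 2.29 and 1.39 with PDZK1. ITIH5, a protein of the hyaluronan matrix, followed at 0.57, with 15.4, 14.7 and 9.93 CPM against 2.53, 2.38 and 1.73. QPRT, an enzyme of NAD synthesis, came at 0.82, with 18.4, 18.9 and 15.1 CPM against 3.12, 3.54 and 4.82.

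The next were ANXA8, an annexin, at 0.99 with means of 8.51 ± 3.19 and 2.2 ± 0.46 CPM, and the zinc finger gene ZNF883 at 1.01 with 9.48 ± 1.41 and 2.98 ± 0.518 CPM (SD, n = 3 each). All 5 were lower with PDZK1 in every library, which follows from their choice by likeness to NEFH. All had smaller log2 fold changes than NEFH, from -2.65 for CSRP1 to -1.67 for ZNF883. None of the 5 is on chromosome 22.

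**Figure D5:**
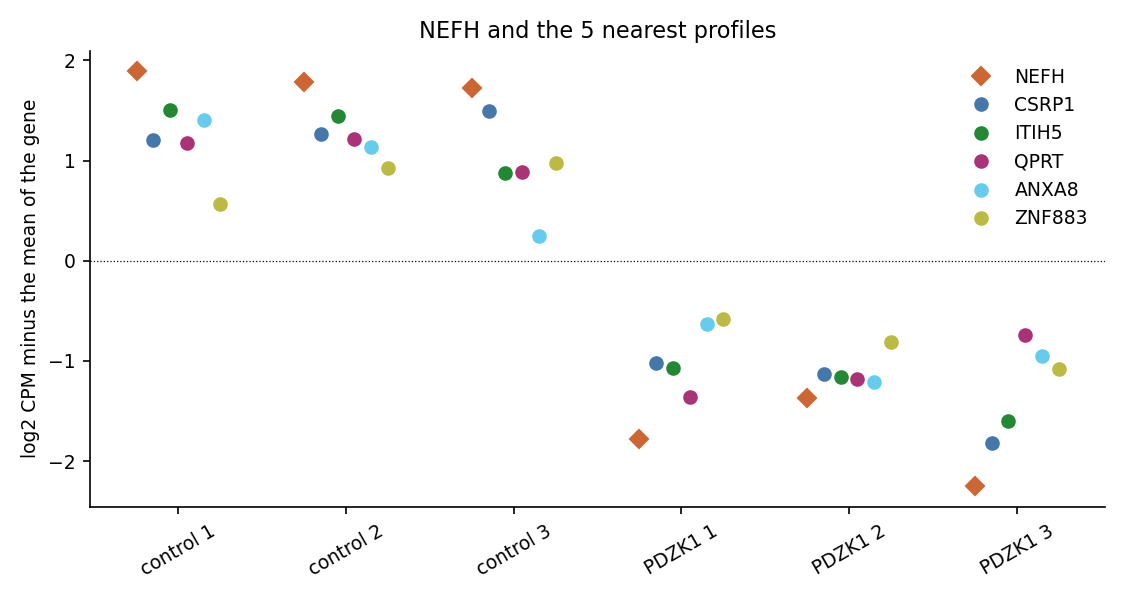
Log2 CPM minus the mean of each gene (vertical axis) in the 6 libraries for NEFH (diamonds) and the 5 genes with the nearest profiles (circles), with 1 point per gene and library. All 6 genes are above 0 in the 3 control libraries and below 0 in the 3 PDZK1 libraries, and NEFH has the widest span.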

How the data were processed

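The authors deposited estimated counts per gene, as whole numbers without scaling for depth, and FPKM per gene, which are fragments scaled by transcript length and library size. The submitters' processing notes name fastp 0.20.1, HISAT2 2.2.1 and GRCh38. The counting program and the strandedness are not given in the sources used here. Each deposited table has 3 further columns of per-sample values that match no sample, and these were not used. Of 21314 entries, 853 assembled loci without an Ensembl identifier were left out.

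The estimated counts were tested with edgeR 4.0.16 in R 4.3.3 (filterByExpr, TMM scaling, robust quasi-likelihood fit without covariates, Benjamini-Hochberg adjustment over all genes tested, threshold 0.05). The same script was tested on simulated data with a single dispersion for all genes and large changes in more abundant genes only. NEFH and the small changes of the related genes lie outside that setting, so nothing on their calls is read from it. CPM used TMM-scaled library sizes, with a prior count of 2 for log2 values in the profile comparison. Intervals are 95% intervals of the model, and floors are 3 counts and cover counting error only. Coordinates and sequences are from GENCODE release 29 on GRCh38, 1-based.

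The filament genes, the related lists, the naming rule and the alternatives were chosen with earlier results of these data known. The rule names all 10 filament genes, up to 5 called genes of each list, the 3 most abundant genes of each marker list and the 5 nearest profiles. A gene that the rule names is not reported here. LMNA, KRT34, KRT33A, KRT33B, KRT86, DSP, CDK5, CDK5R1, HSPB1, REST, TRIM2, HDAC1, LRAT, MAP2, ELAVL3, SNAP25, RPE65, TTR, STMN2, DCX and the neighbouring genes were named beyond it after their values were seen. Alternatives were DESeq2 1.42.0, limma 3.58.1 (voom, or trended variance on log2 FPKM, pseudocount 1 or 0.1, mean FPKM of at least 0.5 or no such filter), other scalings, a minimum of 1 count in total or of 10 counts in each library, the replicate number as a block and each library left out.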

Additional observations from a re-analysis of the deposited data

How the results depend on the processing

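NEFH was called lower in 15 of 15 alternatives that could test it, with log2 fold changes from -4.03 to -1.04, and it was not testable where at least 10 counts were required in every library, which left 0 filament genes called. These refits reuse the same libraries, and NEFH was chosen with its fall known, so they describe the dependence on processing only. VIM stayed between -0.19 and -0.04 and KRT7 between 0.04 and 0.07, uncalled in all 16. KRT18 changed sign, to 0.003 with log2 FPKM (each pseudocount, and no filter) and 0.006 with library totals, and its leave-one-out values ran from -0.085 to 0.030. Those of KRT8 ran from -0.038 to 0.056. With counts in place of FPKM, the share of NEFH differed by -0.057 percentage points, against -0.0265 with FPKM. Counts are not scaled by transcript length, so the 2 shares are on different scales.

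Genes called in all numbered 522, against 814 with DESeq2, 191 and 187 with log2 FPKM (pseudocounts of 1 and 0.1), 184 without the FPKM filter, and 181 to 875 with 1 library left out, the lowest without PDZK1 replicate 1 and the highest without control replicate 3. The 9 related genes called became 3 with each FPKM pseudocount, 4 without the FPKM filter, and 1 to 15 with 1 library left out (1 without PDZK1 replicate 1 or 3, 3 without control replicate 2, 4 without control replicate 1, 5 without PDZK1 replicate 2, 15 without control replicate 3). With a replicate block in the fit, 163 genes and 1 related gene (JUP) were called, and NEFH stayed called. Libraries sharing a number did not deviate together (correlations of -0.046, -0.056 and -0.143). This cannot show whether libraries of the same number were prepared as pairs. Depth limits NES and KRT19, at 0 to 18 counts.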
